A study of Mus musculus with 1627 samples.

Results

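Effector-like and resting spleen Tregs are the ends of a score computed in each spleen cell of the series. The score is the percent of a cell's UMIs (unique molecular identifiers, 1 per captured transcript) that lie in 14 genes of activated or antigen-experienced T cells: Cd44, S100a4, S100a6, S100a10, S100a11, Lgals1, Lgals3, Crip1, Anxa2, Vim, Itgb1, Ahnak, Id2 and Cd48. The spleen cells were ranked by score and divided into 4 bins of 65, 64, 65 and 65 cells from lowest to top. The 65 cells of the top bin are called effector-like, the 65 and 64 cells of the bottom pair of bins together are called resting, and the 65 of the upper middle bin lie between the groups, out of 1627 cells in the series. All cells came from male B6 Foxp3-Ires-Gfp mice, 8 months old, in which GFP reports Foxp3, 4 days after cardiotoxin had been used to injure muscle. Foxp3+ regulatory T cells (Tregs) were sorted as DAPI- TCRb+ CD4+ GFP+ from mechanically dissociated spleen (1 library) and from injured muscle digested with collagenase and dispase (2 libraries, 1368 cells), then profiled with inDrops, a droplet method that primes at the poly(A) tail. No uninjured mouse enters the comparison, so spleen cells of both groups carry the injury in common. The labels do not name the animals, so the cells of 1 library cannot be assigned to mice.

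Tregs are CD4 T cells that restrain immune responses and depend on the transcription factor Foxp3. In lymphoid organs many Tregs are resting cells that recirculate through lymph nodes by way of the chemokine receptor Ccr7 and keep the transcription factors of naive lymphocytes, such as Tcf7. Others have met antigen and have become effector Tregs, which lose the lymph node homing receptors, gain suppressive molecules and receptors for inflamed tissue, and can seed nonlymphoid organs.

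Scores in the effector-like group ran from 0.841% to 3.71% with a median of 1.41%, and in the resting group from 0% to 0.317% with a median of 0.122%. The groups are ranges of a continuous score and not separate types. The last cell inside the effector-like group had 0.841% and the first outside it 0.810%, while the last cell inside the resting group had 0.317% and the first outside it 0.319%. S100a6, a small calcium-binding protein, supplied 24.3% of the effector-like score UMIs, S100a10 13.1% and S100a4 12.1%. Lgals3 (galectin-3) had 45 UMIs in effector-like cells and 0 in resting cells. These values chose the cells and are a description.

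**Figure D1:**
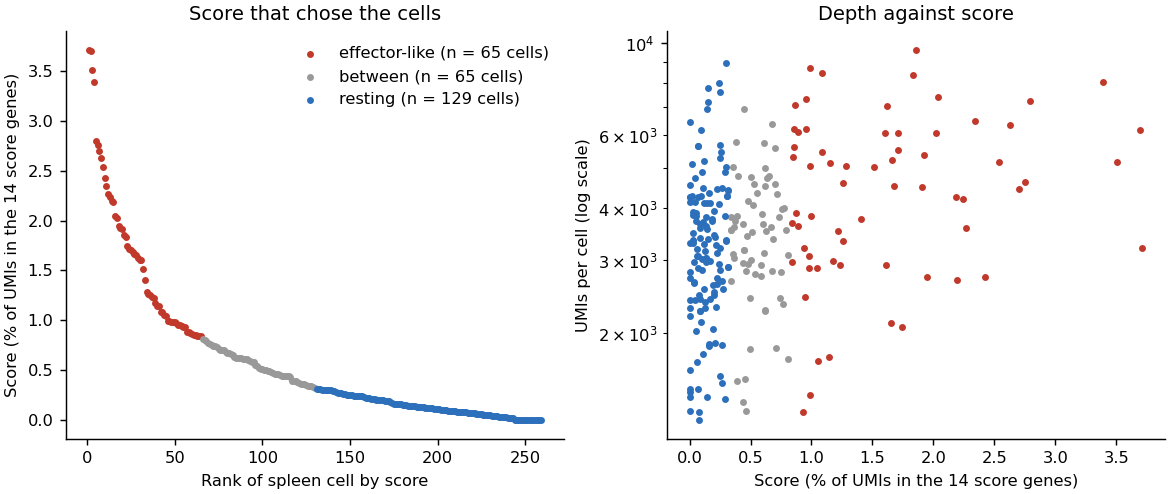
Left, score of each spleen cell (percent of UMIs in the 14 score genes) against its rank; right, UMIs per cell on a log axis against the score, with effector-like cells in red, cells between the groups in grey and resting cells in blue. The score falls without a gap at either limit (0.841% and 0.810%, 0.317% and 0.319%), and effector-like cells reach from 1288 to 9628 UMIs.

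Of the markers given for the label, S100a4, S100a6, Lgals1 and Vim are score genes and cannot check it. Ccr7, the receptor that guides cells to lymph nodes, had 49 UMIs in 13 effector-like cells (162.7 counts per 1e6 UMIs of the group's sum, CPM) and was at 664.8 CPM in 62 resting cells, and Tcf7, a factor of naive and memory T cells, had 19 UMIs in 10 cells and 70 UMIs in 35 cells. Both were thus lower in effector-like cells, by 4.09-fold for Ccr7 and 2.49-fold for Tcf7 per UMI counted. Tcf7 was 1.49-fold lower when the upper 130 cells by score were set against the resting cells, and Ccr7 2.20-fold. Foxp3 was detected in 60% of effector-like and 44.2% of resting cells, at 375.2 and 363.8 CPM, and Cd4 was at 338.6 and 332.4 CPM.

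Depth, ribosomal content and rare transcripts of other cells differed between the groups. Effector-like cells had a median of 4607 UMIs and 1339 genes, against 3277 UMIs and 913 genes in resting cells, while reads per UMI were alike at 55.3 and 54.3. Ribosomal protein genes held 17.98% of effector-like UMIs and 27.4% of resting UMIs. Of 10 B cell markers, Cd79a, Ms4a1, Ebf1 and the class II genes H2-Aa, H2-Ab1 and H2-Eb1 were at 0 in both groups, and the list summed to 116.2 CPM and 69.6 CPM. Of 13 myeloid markers, Lyz2, Csf1r, Cd14, S100a8 and S100a9 were at 0 in both groups, and the list summed to 365.2 CPM and 527.8 CPM, most of it Ctss and Cst3. Of 10 CD8 T and NK markers, the list summed to 255.6 CPM and 195.4 CPM. Its members with the most UMIs were Ccl5, with 38 UMIs in 7 effector-like and 29 in 4 resting cells, and Cd8b1, with 13 in 9 and 31 in 25 cells, while Cd8a had 0 and 4 UMIs and Gzma 9 and 0. Of 8 markers of conventional CD4 T cells, Il4, Il17a, Ifng, Il21, Il2 and Csf2 were at 0 in both groups, and the list summed to 73.04 CPM and 24.7 CPM. Of 6 erythroid and platelet markers, Hbb-bt, Alas2, Pf4 and Ppbp were at 0, and the list summed to 13.3 CPM and 24.7 CPM. In an alternative given with the counts of genes, cells with a UMI of Cd79a, Ms4a1, Lyz2, Cd8a, Cd8b1 or Nkg7 were left out. As Cd79a, Ms4a1 and Lyz2 were at 0, the cells left out of the groups held Cd8a, Cd8b1 or Nkg7. Cells with only the other markers stayed in, so the part of other cells as a whole was not measured. Spleen shared 1 cell barcode with muscle library 1 and 0 with muscle library 2, and no doublet caller was run.

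For the comparison, UMIs were summed over the cells of each group without the 14 score genes and divided by the sum of the remaining genes, which was 301206 UMIs for effector-like and 445252 for resting cells. A UMI was worth 3.32 CPM in the effector-like sum and 2.25 CPM in the resting sum. A summed level cannot separate fewer positive cells from less RNA per cell. With 1 spleen library and groups chosen on these same counts there is no test and no p-value. Intervals are exact 95% intervals (Poisson for a level, conditional binomial for a fold, binomial for a share of cells) and cover counting error only. UMIs cluster within cells, with a median over the higher genes of 3.38 UMIs in each positive effector-like cell, so the true error is wider. A gene was called higher or lower when its level differed by at least 2-fold, among genes with at least 50 UMIs over both groups.

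Effector-like cells had more transcripts per UMI of Gzmb, Ccr2, Klrg1, Areg and Icos, among others, and fewer of Satb1, Id3, Ccr7, Tcf7 and Bach2. Of 2542 measured genes, 12.3% were higher in effector-like cells, 6.45% were lower and 2066 genes were neither, with a median log2 fold of 0.10 and a standard deviation of 0.84 over all measured genes. The higher genes held 10.4% of the counted effector-like UMIs and 3.90% of the resting ones, and the lower genes 1.002% and 2.79%. The higher genes made up 65.5% of the calls. That balance depended on scaling: with ribosomal protein genes left out of the total, the median of all genes moved by -0.17 on the log2 scale and 8.77% of measured genes were higher and 9.13% lower (49.01% of calls higher), and with DESeq2 size factors the median moved by -0.15 and 52.2% of calls were higher. No call changed direction between any of the settings tried. Without the 13 effector-like and 31 resting cells that held Cd8a, Cd8b1 or Nkg7, 12.5% of the 1906 genes then measured were higher and 6.14% lower, and 77.7% and 59.8% of these were among the calls above. When cells were ranked separately among deeper and shallower cells, so that the group medians were 3548.5 and 3541 UMIs, 11.1% of 2514 measured genes were higher and 7.04% lower, and 77.1% and 64.97% of these were among the calls above, which is 69.2% and 70.1% of the calls above.

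Promoters of a few of the genes at the ends of the ranking are printed here, so that their start regions can be read beside their levels. Sequences are RefSeq promoters on build GRCm38.p6, 250 bases before to 50 after the start, written 5′ to 3′ on the gene's own strand in lower case. Capitals mark matches to AP-1 (TGANTCA) or RUNX (TGTGGTT), 2 of 6 motifs searched on both strands and chosen with the results known. Gzmb lies on the minus strand at chr14:56262285-56262584 and holds both motifs, Fgl2 on the plus strand at chr5:21372423-21372722 and Glrx on the plus strand at chr13:75839635-75839934 hold AP-1, and Satb1 on the minus strand at chr17:51833241-51833540, a gene of the lower group, holds neither. Of the 12 genes with the highest folds, only Gzmb, Fgl2 and Glrx hold AP-1 among those with an entry, and these are the ones printed. Ccr2, Fam110a, Myo1f, Slamf6 and Arhgap1 hold none of the 6 motifs, and Areg holds CRE (TGACGTCA) only. The printed genes therefore do not compare higher with lower genes.
Gzmb: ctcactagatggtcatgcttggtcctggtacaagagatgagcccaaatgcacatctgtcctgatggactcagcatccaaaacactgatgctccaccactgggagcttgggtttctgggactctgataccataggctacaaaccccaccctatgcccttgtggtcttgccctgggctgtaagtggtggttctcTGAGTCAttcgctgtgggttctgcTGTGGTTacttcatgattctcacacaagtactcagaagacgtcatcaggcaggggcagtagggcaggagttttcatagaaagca
Fgl2: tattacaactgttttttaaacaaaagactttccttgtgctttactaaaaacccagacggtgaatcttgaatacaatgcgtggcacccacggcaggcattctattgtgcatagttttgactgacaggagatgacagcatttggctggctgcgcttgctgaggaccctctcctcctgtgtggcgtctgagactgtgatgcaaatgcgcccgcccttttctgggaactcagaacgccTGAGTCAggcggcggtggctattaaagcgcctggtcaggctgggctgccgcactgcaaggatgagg
Glrx: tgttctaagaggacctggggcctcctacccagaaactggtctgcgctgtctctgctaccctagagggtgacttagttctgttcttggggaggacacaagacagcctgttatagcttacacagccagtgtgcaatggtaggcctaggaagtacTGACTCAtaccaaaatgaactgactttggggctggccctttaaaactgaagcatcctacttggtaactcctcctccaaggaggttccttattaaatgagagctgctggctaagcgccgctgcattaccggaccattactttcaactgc
Satb1: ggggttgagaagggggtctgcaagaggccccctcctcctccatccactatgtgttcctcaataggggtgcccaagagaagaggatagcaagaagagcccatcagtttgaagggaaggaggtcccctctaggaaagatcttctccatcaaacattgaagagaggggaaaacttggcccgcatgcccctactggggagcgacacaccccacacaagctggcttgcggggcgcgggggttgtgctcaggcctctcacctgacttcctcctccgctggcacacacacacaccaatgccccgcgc
Of all 27025 promoters in that table, 7.93% hold the AP-1 letters and 5.37% the RUNX letters, so a match is common and describes the letters only. The Gzmb promoter has 2 CpG dinucleotides and a GC content of 51%, Fgl2 12 CpG and 51.7%, Glrx 4 CpG and 50%, and Satb1 8 CpG and 59%. No share is given for the called genes, because only 78.8% of the higher and 73.8% of the lower genes had an entry in the table.

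The 12 genes with the highest folds were Ccr2, Fam110a, Gzmb, Fgl2, Klrg1, Myo1f, Vamp3, Areg, Slamf6, Arhgap1, Glrx and Lamc1. Ccr2 (chr9:124101950-124113557, GRCm38), a receptor for monocyte-attracting chemokines made in inflamed tissue, was seen in 17 of 65 effector-like cells and in 0 resting cells. Its level was 537.8 CPM (458.2 to 627.3) against 0 CPM (up to 8.28). This is 79.8-fold higher when the resting group takes a floor of 3 counts, and the counting interval of the fold starts at 64.2. With each gene counted once per cell and the same floor, Ccr2 was 8.27-fold higher. Gzmb (chr14:56258838-56262260), the granule protease granzyme B, was seen in 12 effector-like cells and had 9 UMIs in 1 resting cell. The levels were 770 and 20.2 CPM, 38.1-fold apart (19.7 to 84.4), and a single effector-like cell held 48 UMIs. Gzmb was therefore concentrated in few cells, in contrast to Glrx, which was seen in most of the effector-like group.

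Klrg1 (chr6:122270596-122282882), an inhibitory receptor of terminally differentiated lymphocytes and of tissue Tregs, was seen in 23 effector-like cells and had 16 UMIs in 4 resting cells. It stood at 580.998 CPM (498.1 to 673.7) against 35.9 CPM (20.5 to 58.4), 16.2-fold higher (9.68 to 28.9). Glrx (chr13:75839868-75850154), the redox enzyme glutaredoxin, was seen in 39 effector-like cells and 15 resting cells, at 757 and 83.1 CPM, 9.11-fold higher. Areg (chr5:91139599-91148432), the growth factor amphiregulin that Tregs release during tissue repair, was at 458.2 CPM against 35.9 CPM (16 UMIs) and was 12.7-fold higher. A single effector-like cell held 46 of the Areg UMIs. Fgl2, a secreted suppressor protein, had 49 UMIs in 13 cells against 2 UMIs and was 36.2-fold higher, and its gene body overlaps Ccdc146 on the other strand.

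Fam110a (chr2:151969398-151980219), a gene of centrosome-associated protein, had 56 UMIs in 17 effector-like cells against 2 UMIs, 41.4-fold higher (10.9 to 350). Myo1f, an unconventional myosin of leukocytes, was 15.4-fold higher, and Vamp3, a vesicle fusion protein, 14.8-fold higher. Slamf6, a surface receptor of lymphocytes, was 12.04-fold higher, Arhgap1, a GTPase-activating protein, 10.3-fold, and Lamc1, a laminin chain, 8.68-fold higher. All 12 of these leading higher genes stayed at least 2-fold higher in each of the 15 alternatives computed per gene. They were chosen for the largest folds in these same cells, and the alternatives reuse most of the cells. Staying past 2-fold is therefore a description and no independent check. The count of positive cells shows the spread: from 10 cells for Lamc1 to 39 cells for Glrx of the 65.

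Because effector-like cells were deeper, the shares of positive cells were recomputed after each cell had been thinned to 1000 UMIs (no cell was left out). Ccr2 was then seen in 18.5% of effector-like cells (9.92% to 30.03%) and 0% of resting cells (up to 2.82%), against 26.2% and 0% without thinning. Klrg1 was seen in 26.2% (16.03% to 38.5%) and 1.55% (0.188% to 5.49%), and Glrx in 36.9% (25.3% to 49.8%) and 3.88% (1.27% to 8.81%). Gzmb was seen in 15.4% (7.63% to 26.5%) and 0.775% (0.0196% to 4.24%). The genes were chosen for their folds in these same cells, so the shares are a description. No cell type that should lack these genes was sorted, so no background share can stand beside them.

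The leading genes met in the same cells only in part. Over Ccr2, Fam110a, Gzmb, Fgl2, Klrg1 and Myo1f, 18 effector-like cells held none, 21 held 1, 11 held 2, 6 held 3, 5 held 4, 4 held 5 and 0 held all 6. Of the resting cells, 120 held none, 8 held 1 and 1 held 2. Klrg1 was found in 10 of the 12 Gzmb cells, 11 of the 17 Fam110a cells and 9 of the 17 Ccr2 cells, and 8 cells held Ccr2 with Gzmb. Fgl2 and Myo1f met in 2 cells. The effector-like cells that held none of the 6 had a median of 3093.5 UMIs and those that held 5 a median of 6699 UMIs, so depth moved with the number seen, and its part was not tested.

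Within the effector-like group the leading genes were not spread evenly over the score. Among the 33 cells with the higher scores lay 11 of the 12 Gzmb cells, 14 of the 17 Ccr2 cells and 16 of the 19 Myo1f cells. Fgl2 lay the other way, with 4 cells among the 33 and 9 among the 32 with lower scores, and Areg lay in 9 and 8. Ccr7 was seen in 4 and 9 cells and Tcf7 in 2 and 8. The cells with Gzmb had a median score of 2.29%, those without it 1.22%. Cells with Gzmb were also deeper, with a median of 5333 UMIs against 4250 in those without it, as were cells with Myo1f (6073 against 3863). The part of depth was not tested. The genes were chosen on groups set by this same score, so these counts are a description.

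Among the 12 genes with the lowest folds, Satb1, Id3, Dnmt3a and Hmgn1 act on transcription or chromatin. Satb1 (chr17:51736187-51833290), a chromatin organizer of T cells that Tregs repress as they mature, had 26 UMIs in 12 effector-like cells and was seen in 65 resting cells. Its level was 86.3 CPM (56.4 to 126.5) against 671.5 CPM (597.6 to 752), 7.78-fold lower (5.20 to 12.1), and several unnamed genes overlap it on the same strand. Id3 (chr4:136143497-136145755), an inhibitor of E proteins that marks resting T cells, had 4 UMIs in 1 cell against 66 UMIs in 19 cells and was 11.2-fold lower. Dnmt3a, the de novo DNA methyltransferase, had 3 UMIs against 50, 11.3-fold lower (3.64 to 56.5), and an antisense gene overlaps it. Hmgn1, a nucleosome-binding protein, had 9 UMIs in effector-like cells, 29.9 against 253.8 CPM, and was 8.49-fold lower (4.32 to 19.1).

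The other leading lower genes had few counts in effector-like cells and wide intervals. Pknox1, a homeodomain factor, had 3 UMIs against 57 and was 12.9-fold lower (4.18 to 64.2). Cep350, a centrosome protein, had 3 against 51 (11.5-fold), Trim59 had 4 against 64 (10.8-fold) and Cebpz, a nucleolar protein, 4 against 49 (8.29-fold). Bmyc, Wdtc1 and Rab3ip had 5 UMIs each against 55, 55 and 54, at folds of 7.44, 7.44 and 7.31. Jun, a subunit of AP-1, had 10 UMIs in 5 cells against 86 UMIs in 23 cells and was 5.82-fold lower (3.02 to 12.6). Of the 12 leading lower genes, 11 stayed at least 2-fold lower in the 15 alternatives and Cebpz did not, at 1.56-fold when deeper and shallower cells were ranked separately. These genes too were chosen for their folds in cells that the alternatives largely reuse. After thinning, Satb1 was seen in 6.15% of effector-like cells (1.70% to 15.01%) and 33.3% of resting cells (25.3% to 42.2%).

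The cells between the groups were not used for any call. They lay between the groups in summed level for 74.4% of the higher genes and 72.6% of the lower genes. Over the 4 bins of the score the order was monotonic for 40.7% of the higher and 23.2% of the lower genes. The share of UMIs in the higher genes was 3.64%, 4.13%, 6.56% and 10.4% from lowest to top, and that in the lower genes 2.73%, 2.84%, 2.06% and 1.002%. The genes were called on the top bin against the bottom pair pooled, so the distance of the top bin from those was set by the choice of genes. That choice also favours an ordered course. No share of genes between the groups or in monotonic order was computed over all measured genes, so these shares have no background beside them.

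Single genes differed in where along the score they changed. Ccr2 was at 0, 0, 65.5 and 537.8 CPM and Gzmb at 0, 38.6, 117.9 and 770 CPM from the lowest to the top bin. Areg had most of its level already in the upper middle bin, at 14.2, 55.7, 340.5 and 458.2 CPM, and Icos was at 297.2, 514.3, 969 and 1365 CPM. S1pr4, a sphingosine phosphate receptor, stood at 61.3, 68.6, 61.1 and 258.96 CPM, and only the top bin differed. Satb1 was graded, at 816, 540.1, 253.2 and 86.3 CPM. Hmgn1 was at 287.8, 222.9, 26.2 and 29.9 CPM, so the upper middle bin was already as low as the top. Ccr7 was at 679.4, 651.5, 484.5 and 162.7 CPM and Tcf7 at 198.2, 120.01, 161.5 and 63.1 CPM. Foxp3, at 401.1, 330.03, 379.8 and 375.2 CPM, had no such course.

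**Figure D2:**
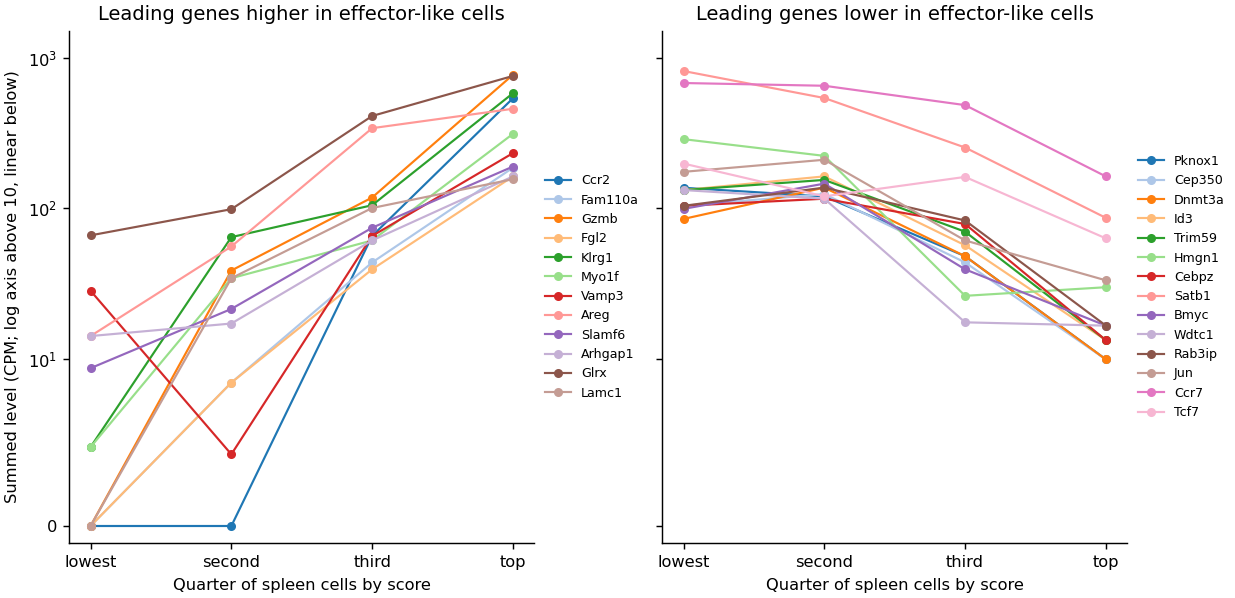
Summed level in CPM (log axis above 10, linear below) in each of 4 bins of spleen cells by score, for the 12 leading higher genes on the left and for the 12 leading lower genes with Ccr7 and Tcf7 on the right. Ccr2 runs from 0 to 537.8 CPM and Satb1 from 816 to 86.3 CPM between the lowest and the top bin.

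The lists below were read by their counts and medians beside those of all measured genes (12.3% higher, 6.45% lower, median log2 fold 0.10). Of 24 resting lymphoid genes 18 were measured, of which 10 were lower, 1 was higher and 7 were neither, with a median log2 fold of -1.18. With cells thinned to 1000 UMIs and ranked anew 9 were measured, of which 3 were lower and 1 higher, and the median was 0.14. At a minimum of 100 UMIs 5 of 13 were lower, with a median of -0.57. Besides Satb1, Id3, Ccr7 and Tcf7, the lower genes of the main comparison were Bach2, a repressor of effector genes (8 UMIs against 51, 4.31-fold lower), Nsg2 (3.61-fold), the survival factor Bcl2 (3.21-fold), Tbc1d4 (3.04-fold), Itm2a (2.46-fold) and Evl (2.08-fold). The exception was Il7r, the interleukin-7 receptor of resting and memory cells, at 478.1 against 222.3 CPM, 2.15-fold higher. Its call was lost in 5 of 15 alternatives, with a smallest fold of 1.62. These were DESeq2 size factors, ribosomal genes left out of the total, cells weighted equally, the upper 130 cells and each gene counted once per cell. Of the lower genes, the Evl call was lost in 5 alternatives, with a smallest fold of 1.30, and that of Tbc1d4 in 3. S1pr1, the receptor by which lymphocytes leave lymph nodes (log2 fold 0.28), and Klf2, a factor of quiescence and recirculation (-0.45), were not called.

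Of 18 suppressor molecules and coinhibitory receptors only 6 were measured, of which 4 were higher and none lower, with a median log2 fold of 2.70. Gzmb, Fgl2 and Areg reached the 50 UMI minimum through the group in which they were high, so the count and the median cannot stand for the list. At a minimum of 20 UMIs 5 of 10 were higher and 1 lower, with a median of 1.34, and with each gene counted once per cell the median was 1.28. The 4 were Gzmb, Fgl2, Areg and Icos, the costimulatory receptor of effector Tregs, which was seen in 55 effector-like and 42 resting cells, at 1365 against 411.003 CPM, 3.32-fold higher. Il10, the suppressive cytokine, had 24 UMIs against 41 (log2 fold -0.21). Of 15 tissue Treg genes 4 were measured and 3 were higher, with a median of 2.10: Klrg1, Glrx and Samsn1, an adaptor protein, at 2.02-fold. Klrg1 and Glrx likewise reached the 50 UMI minimum through the group in which they were high, so this count and median cannot stand for the list either. At a minimum of 20 UMIs 4 of 7 were higher and 0 lower, with a median of 1.02. Samsn1 lay below 2-fold in 12 of the 15 alternatives.

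Effector and tissue Treg transcription factors had 2 of 9 measured genes higher and a median log2 fold of 0.56. Maf, a factor of interleukin-10 production, was seen in 37 and 21 cells, at 441.6 against 166.2 CPM, and was 2.66-fold higher, and Nfil3 had 36 UMIs against 16 and was 3.33-fold higher. Both were under 2-fold with deeper and shallower cells ranked separately, at 1.77 and 1.51. Gata3 (358.6 and 199.9 CPM) and Batf (132.8 and 74.1 CPM), factors that drive tissue Treg programs, were each at 1.79-fold and were not called. Treg identity genes had 1 of 11 higher, the actin-capping protein Capg at 2.91-fold, and 1 lower, Izumo1r, the folate receptor 4, at 2.71-fold lower (491.4 against 1330 CPM). Their median of 0.04 changed sign with TMM factors, where it was -0.06. Il2ra, the high-affinity interleukin-2 receptor chain, was at 365.2 against 496.3 CPM.

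Trafficking genes split by receptor. Of 4 measured chemokine and related receptors, Ccr2 and S1pr4 (3.98-fold) were higher, and Cxcr4, the receptor for the stromal ligand of bone marrow and lymphoid tissue, was 2.03-fold lower (209.2 against 424.5 CPM). The Cxcr4 call was lost in 7 of 15 alternatives; with all 130 cells of the higher scores set against the resting cells the log2 fold was -0.08. Integrins and selectin ligands had 3 of 9 higher and none lower: Itgb7, the beta chain of the gut-homing integrin (2.87-fold), Emb, a transmembrane glycoprotein (2.87-fold), and Selplg, the ligand of P-selectin (2.09-fold). The Selplg call was lost in 10 of 15 alternatives, TMM, DESeq2 and no-ribosomal scaling included, with a smallest fold of 1.23. Cytokine receptors had 1 of 13 higher, Il7r, and 2 lower, the interferon-gamma receptor chain Ifngr2 (9 against 66 UMIs, 4.96-fold) and the shared interleukin-6 receptor chain Il6st (2.29-fold). The Il6st call was lost in 5 of 15 alternatives, with a smallest fold of 1.54, and that of Ifngr2 in 1. In the TNF receptor family 1 of 9 genes was higher, Tnfrsf1b, at 2.37-fold. Its call was lost, at 1.67-fold, with deeper and shallower cells ranked separately.

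In the actin cytoskeleton list 8 of 26 measured genes were higher and none lower, 25 had a log2 fold above 0, and the median was 0.62. Actg1, cytoplasmic gamma-actin, was at 8509 against 3167 CPM, 2.69-fold higher, Arpc5 2.56-fold, the crosslinker Flna 2.46-fold and Capzb 2.26-fold. Actg1 was seen in 100% of effector-like and 97.7% of resting cells, and Arpc5 in 61.5% and 27.9%. Counting each gene once per cell removed all 8 calls, 5 genes were called with DESeq2 size factors, 4 with ribosomal genes left out of the total and 2 with the upper 130 cells against the resting cells. Arhgdib was under 2-fold in 11, Arpc1b in 8, Arpc3 in 7 and Cotl1 in 5 of the 15 alternatives. Capzb was under 2-fold in 4, Flna in 2, and Actg1 and Arpc5 in 1 each. Of 11 annexins and S100 genes outside the score 4 were measured and 2 were higher, S100a13 at 3.53-fold and Anxa6 at 2.97-fold, relatives of the score genes. At a minimum of 20 UMIs 2 of 5 were higher and 1 lower, with a median of 0.46. Of 8 nuclear lamina and linker genes 3 were measured, and Lmnb1 (lamin B1, 3.76-fold) and Emd (emerin, 2.25-fold) were higher. S100a13, Lmnb1 and Emd reached the 50 UMI minimum through the group in which they were high. At a minimum of 20 UMIs 4 of 6 lamina and linker genes were higher and 0 lower. The Emd call was lost in 5 of 15 alternatives, with a smallest fold of 1.12, and that of Lmnb1 in 0.

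Activation and survival genes went both ways. Among 8 activation genes Nfatc1 (2.28-fold) and the early activation receptor Cd69 (2.12-fold) were higher, while Nr4a2 (2.40-fold), Egr1 (2.03-fold) and Myc (2.03-fold), which follow receptor signals, were lower. The Cd69 call was lost in 9 of 15 alternatives, TMM, DESeq2 and no-ribosomal scaling and separate ranking of deeper and shallower cells included, and its log2 fold was -0.04 with the 26 top cells set against the resting cells. The calls of Nr4a2 and Egr1 were lost in 4 alternatives each and that of Nfatc1 in 3. Of 12 immediate early genes, Jun and Fos (2.44-fold) were lower and none was higher, and Junb was at a log2 fold of 0.39. Among 8 NF-kB genes only Nfkbiz was called, at 571.04 against 134.8 CPM, 4.24-fold higher. Among 9 survival and death genes Bcl2a1b (4.595-fold) and Bcl2a1d (2.44-fold), prosurvival copies whose reads may be shared, were higher. Bcl2 and the proapoptotic Bcl2l11 (11 against 75 UMIs, 4.61-fold) were lower. The Bcl2a1d call was lost in 4 of 15 alternatives, those of Bcl2a1b and Bcl2 in 1 each and that of Bcl2l11 in 0.

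Of the other lists, type I interferon response genes had 3 of 10 higher (Gbp2 at 2.69-fold, Ifi27l2a at 2.29-fold, Isg15 at 2.22-fold) and none lower, with a median of 0.53. The Isg15 call was lost in 4 of 15 alternatives and those of Gbp2 and Ifi27l2a in 1 each. T cell receptor and early signalling genes (15 measured) and MHC class I genes (12) had no call, with medians of 0.17 and 0.24. The first median was 0.00 with ribosomal genes left out of the total. Glycolysis had 1 of 9 higher, Pfkp, a phosphofructokinase, at 2.48-fold, and oxidative phosphorylation 1 of 20, Ndufa4, at 2.41-fold. Cell cycle genes had 1 of 5 measured higher, Hmgb2, a chromatin protein, at 2.64-fold, and its log2 fold was 0.94 once the 11 effector-like and 7 resting cells holding cycling genes were left out. Heat shock genes had Hsp90aa1 lower by 2.21-fold among 10 measured, and a median of -0.50. The Hsp90aa1 call was lost in 4 of 15 alternatives. Translation factors (13 measured, no call) had a median of -0.32. Of 85 measured ribosomal protein genes none passed 2-fold and 3 had a log2 fold above 0, with a median of -0.61.

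**Figure D3:**
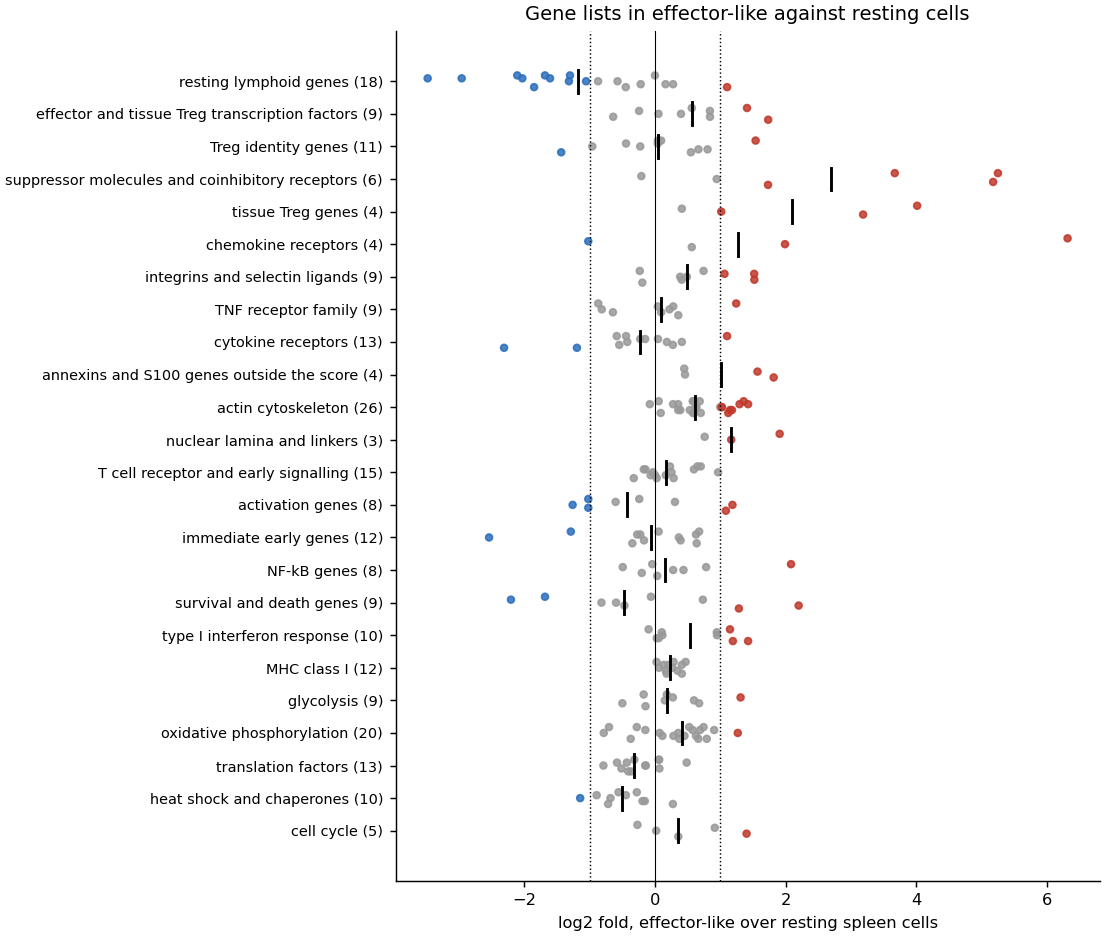
Log2 fold of effector-like over resting spleen cells for every measured gene of each list, with the number measured in brackets, the median as a black bar and 2-fold limits as dotted lines; red points are called higher and blue points lower. The resting lymphoid list has its median at -1.18 and the suppressor list at 2.70. The suppressor median cannot stand for its list, because Gzmb, Fgl2 and Areg reached the UMI minimum through the group in which they were high. At a minimum of 20 UMIs the suppressor median was 1.34.

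The same ranking was then made inside each muscle library, whose cells the spleen groups did not use. Muscle cells scored high, with 88.9% and 89.05% at or above the lowest score of the effector-like spleen group and 12 and 9 cells at or below the highest of the resting group. The low-scoring muscle cells set against the top ones, divided as in spleen, had median scores of 1.23% and 1.25%, so the range of scores was narrower than in spleen.

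Genes higher in effector-like spleen cells were rarely past 2-fold in the same direction in muscle. In library 1, 5 higher genes were (1.66% of those measured there, against 1.76% of all 3748 measured genes), and in library 2, 2 were (0.656%, against 2.31% of 4286). More of them, 7 and 8, passed 2-fold in the opposite direction. Of all measured genes, a larger share, 4.4% and 4.99%, were at least 2-fold lower. The higher genes thus showed no particular tendency to reverse in muscle. None of the higher genes passed in the same direction in both libraries, where 0.253% of the 3563 genes measured in both did. In the opposite direction 1, Marcksl1, passed in both, where 0.898% of all genes measured in both were at least 2-fold lower. Genes with the same sign were 65.1% and 62.6% of the higher set, against 46.9% and 46.97% of all genes. Klrg1 was at 974 and 428.2 CPM in the top and low-scoring cells of library 1 and at 1202 and 607.9 CPM in library 2, and Gzmb at 2947 and 1989 CPM and at 3045 and 1684 CPM. Their log2 folds were 1.19 and 0.98 for Klrg1 and 0.57 and 0.85 for Gzmb.

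Genes lower in effector-like cells passed 2-fold in muscle more often than genes in general. In library 1, 19 lower genes were at least 2-fold lower (14.96% of those measured, against 4.4% of all genes), and in library 2, 20 were (15.2%, against 4.99%). In both libraries 6 passed (4.96%, against 0.898%): the nucleolar proteins Fbl, Nop56 and Nop58, the tumour suppressor Trp53, the mitochondrial ribosomal protein Mrps6 and the zinc finger gene Zhx2. These 6 were named after their values were seen. Of the leading lower genes, Id3 had 1 and 8 UMIs in the top and low-scoring cells of library 1, and 2 and 16 in library 2, too few to be measured. Dnmt3a had log2 folds of -1.24 and -1.09, from 10 against 43 and 7 against 27 UMIs, which is under the 50 UMI minimum in library 2.

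Levels in all cells of muscle put most of the called genes between the spleen groups. These genes were called for lying at least 2-fold apart in spleen, which by itself leaves room for a level between the groups. No such share was computed over all measured genes, so the shares are a description. Of the higher genes, both muscle libraries lay at or past the effector-like level for 63 (20.2%), between the groups for 58.7% and at or below the resting level for 13, and the libraries differed in place for 53. Of the lower genes, 32 lay at or past the effector-like level, 91 between, 8 at or past the resting level and 33 differed. Ccr2 was at 1145 and 1146 CPM in muscle, above the 537.8 CPM of effector-like spleen cells, and Gzmb at 2421 and 2191 CPM against 770 CPM. Slamf6 was at 39.9 and 46.3 CPM in muscle against 189.2 CPM in effector-like spleen cells, and Myo1f at 184.3 and 241.1 against 312.1 CPM. Satb1, at 111.8 and 86.2 CPM, was near the effector-like level of 86.3 CPM, and Tcf7, at 8.65 and 2.66 CPM, was under that of 63.1 CPM. Tissue, dissociation and library differ together between spleen and muscle and cannot be told apart.

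**Figure D4:**
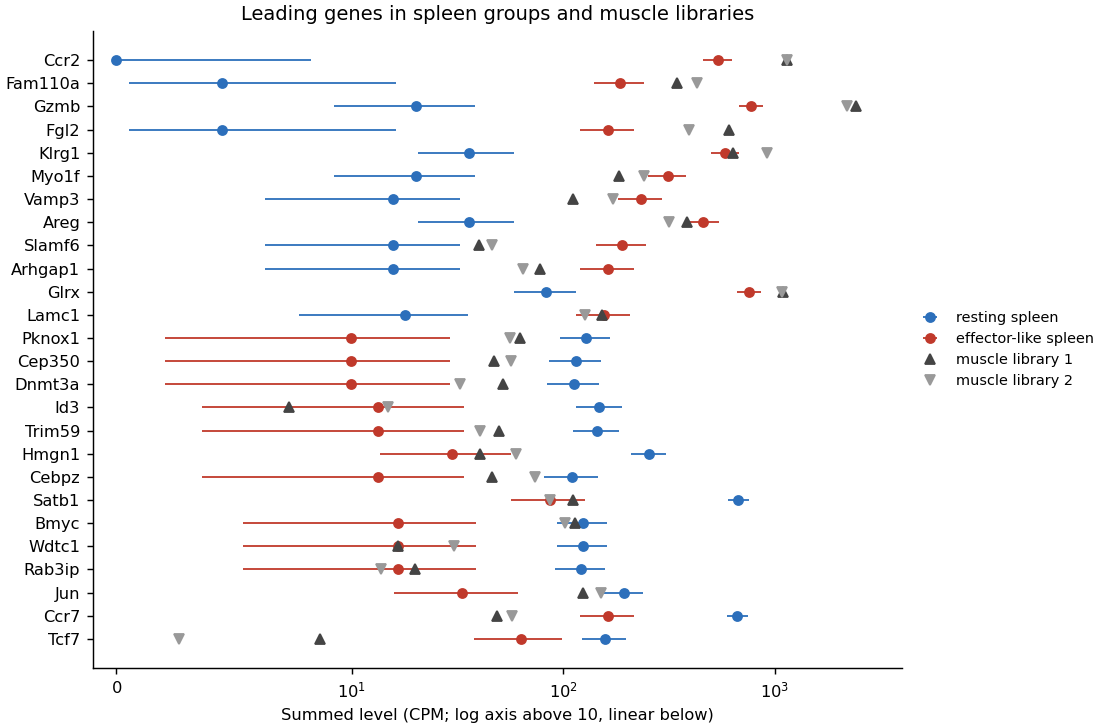
Summed level in CPM (log axis above 10, linear below) of the leading genes, Ccr7 and Tcf7 in resting (blue) and effector-like (red) spleen cells, with exact 95% Poisson intervals for counting error, and in each muscle library (triangles). Ccr2 and Gzmb lie above the effector-like level in both muscle libraries, and Slamf6 lies between the spleen groups at 39.9 and 46.3 CPM.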

How the data were processed

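The authors deposited raw UMI counts per gene and cell (23725 genes, 1627 cells, 3 inDrops libraries). The submitters' processing notes name TopHat2, SAMtools and the mm10 build. The sources used here do not state the annotation, the strand setting, how UMIs were collapsed or any rule for keeping cells. Cells were assigned to spleen or muscle by the labels, and all were kept. Members, gene lists and rules were chosen with earlier results of these data known. Spleen cells were ranked by the score and UMIs were summed per group with Python 3.11.15, numpy 2.4.6, pandas 2.3.3 and scipy 1.17.1. edgeR 4.0.16 and DESeq2 1.42.0 supplied alternative scaling factors only, and no test was run. The fold and the 2-fold call were checked on simulated Poisson counts of the group sums. These lack the clustering of UMIs within cells, so the check does not cover that error.

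Named genes are the 12 with the largest and the 12 with the smallest log2 fold among genes with at least 50 UMIs and a UMI in at least 10 cells of the higher group, without score, ribosomal protein, predicted and receptor segment genes. To these were added up to 4 members of each list with the largest absolute log2 fold, every called list member, Ccr7, Tcf7, Foxp3, Cd4, Cd3e and Il2ra; other list members and the muscle genes were named after their values were seen. Symbols were matched to GENCODE M21 (22822 symbols, 96.2%) for coordinates. The alternatives were 17 planned and 2 added after seeing the data.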

Additional observations from a re-analysis of the deposited data

How the results depend on the processing

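Depth limits these values: a UMI was worth 3.32 CPM in the effector-like and 2.25 CPM in the resting sum, so genes with few UMIs have wide intervals. Against 12.3% of measured genes higher and 6.45% lower, a minimum of 20 UMIs (5149 genes measured) gave 16.2% and 12.1%, and a minimum of 100 UMIs (1242 measured) 11.2% and 3.22%. A threshold of 1.5-fold gave 25.5% and 16.6% and one of 3-fold 3.38% and 2.44%. With cells thinned to 1000 UMIs and ranked anew 9.71% and 3.58% of far fewer measured genes were called, 57 higher and 21 lower, of which 39 and 6 were among the main calls. Against the lowest 64 cells alone 18.7% of 1754 measured genes were higher and 4.96% lower, 45 of these 87 lower genes being shared. Counting each gene once per cell, an alternative chosen after seeing the data, gave 6.02% and 3.82%, and leaving out the highest cell of each gene and group, also added, gave 14.6% and 8.14%. The counts of the other alternatives stayed within 1.5 times the main counts, and 0 calls changed direction in any alternative. The share of calls that were higher, 65.5%, was 77.7% at 100 UMIs, 79.04% against the lowest cells and 55.2% for the 26 top cells. Of 1920 values of the named genes, 86.9% lay inside the counting interval of the main fold, 12.97% outside it, and 2 values of called genes changed sign: Actg1 had a log2 fold of -0.41 with each gene counted once per cell, and Cd69 a log2 fold of -0.041 with the 26 top cells against the resting cells. The cause was not tested. Of the 52 named genes that were not called, 23 changed sign in at least 1 alternative. Of the 76 named genes that were called, 33 stayed at least 2-fold in all 15 alternatives, and the leading genes among them were chosen for large folds in the same cells. No paired analysis was possible because the labels give the libraries 1 spleen and 2 muscle samples with no shared replicate, and no test was run.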
